A study of Bos grunniens with 6 samples.

Results

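Genes of meiotic chromosomes and DNA repair were described in the m6A profile of cattle-yak testis. The members were all gene identifiers in the peak list whose symbol begins with the letters of a meiotic, cohesin, recombination, mismatch repair, Fanconi anaemia, damage response, topoisomerase, replication licensing or DNA polymerase family, from SYCP and MSH to MCM and POLE. The rule found 78 identifiers with 68 symbols and 161 peaks, of 8986 identifiers with 7802 symbols and 16186 peaks in all. No measured value entered the rule, but a symbol is known here only for a gene with a peak. Every member therefore has a peak, and its presence is not a result. Among the members, 18 identifiers with 13 symbols and 29 peaks belong to genes used mainly in meiosis: SYCP1, SYCP2, SYCP3, SYCE1L, HORMAD2, SMC1B, MEI1, MEI4, DMC1, MEIOB, MEIOC, MSH4 and MLH3. These are called the meiotic members below, and the other 60 identifiers the other members.

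Testes were taken at castration from 3 male cattle-yaks, the hybrid of cattle and yak, each 5 years old and named TES5, TES6 and TES7. Each testis gave 1 m6A immunoprecipitation (IP) library and 1 input library, 6 libraries in all, so there is 1 condition and no control group. Peaks are regions where IP reads exceed input reads. They come as 1 list for the 3 animals, without heights or values per animal, and expression comes as FPKM, fragments scaled for transcript length and for the mapped fragments of the library, in each input library. The sum of FPKM over 20953 genes was 302365, 280940 and 285927 in TES5, TES6 and TES7, and the numbers of reads behind a value cannot be recovered from these files.

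In meiotic prophase, homologous chromosomes are cut by programmed double-strand breaks, held along cohesin-based axes, and zipped together by the synaptonemal complex while the breaks are repaired as crossovers or without exchange. The enzymes of somatic repair and replication (mismatch repair, BRCA and Fanconi anaemia proteins, the MCM helicase and the polymerases) serve the same chromosomes before, during and after this phase. Male cattle-yaks are sterile, and their germ cells rarely pass through meiosis. m6A is a methyl mark on adenosines inside mRNA, often in long internal exons and around the stop codon, and it is read by proteins such as YTHDC2, a partner of MEIOC.

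Some symbols did not stand for a single gene. DMC1 was carried by 3 identifiers, SYCP2 by 4, and MCM3AP, POLDIP2, XRCC1, XRCC2 and XRCC4 by 2 each, so that 7 symbols sat on 17 identifiers. For 5 identifiers the ontology terms in the peak list name another function: an SYCP2 identifier on vasoconstriction, another on phospholipid transport, a DMC1 identifier on Wnt signalling, an XRCC4 identifier on hyaluronic acid binding and the MEIS3 identifier on RNA helicase activity. The first letters also caught MEIS1, MEIS3, MCM3AP, MCMBP and POLDIP2 (7 identifiers), which are named for other families. Without the latter, 149 peaks were left, and without the 5 identifiers with other terms, 153.

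Of the 161 member peaks, 132 were in the exon class (82.0%, Wilson 95% interval 75.3 to 87.2), 18 (11.2%, 7.19 to 17.0) were 3' UTR peaks, and 11 (6.83%, 3.86 to 11.8) were 5' UTR peaks. Over all listed peaks the shares were 70.3%, 20.8% and 8.82%. The members thus had a larger share of exon peaks and a smaller share of 3' UTR peaks than the list as a whole, whose values lay outside the members' intervals for these classes and inside it for the 5' UTR. Such intervals cover counting error only, since peaks of 1 gene are not independent. Transcripts carrying members' exon peaks had a median of 20 exons, against 12 over all exon peaks. A cut at 20000 bp of listed transcript span was chosen after the data were seen. Among peaks on transcripts over it, the exon share was 83.1% of 136 member peaks and 71.0% of 10721 peaks in all. Among peaks of at most 1000 bp it was 73.3% of 60 member peaks (61.0 to 82.9) against 64.4% of 8059, and there the member interval held the value of the whole list. Its 3' UTR counterpart was 21.7% against 28.1%.

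Member peaks were also wider. A width counts genomic bases and so includes introns between methylated exons. The median width was 1922 bp (quartiles 398 and 5394) against 1022 bp over the list, and 60 of 161 peaks were at most 1000 bp wide (37.3%, 30.2 to 45.0), where 49.8% of all peaks were. For wide peaks the list's values lay inside the members' intervals, with 22 over 10000 bp (13.7%, 9.20 to 19.8, against 14.4%) and 5 over 50000 bp (3.11%, 1.33 to 7.06, against 2.17%). Members lay in long transcript units, with a median span of 48312 bp against 28394 bp. Across peaks, width and span had a Spearman rho of 0.23 in the members (n = 161) and 0.24 in the list (n = 16186), where the points share transcripts. On transcripts over 20000 bp, the cut chosen after the data were seen, 33.1% of member peaks and 42.6% of all peaks were at most 1000 bp.

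**Figure D1:**
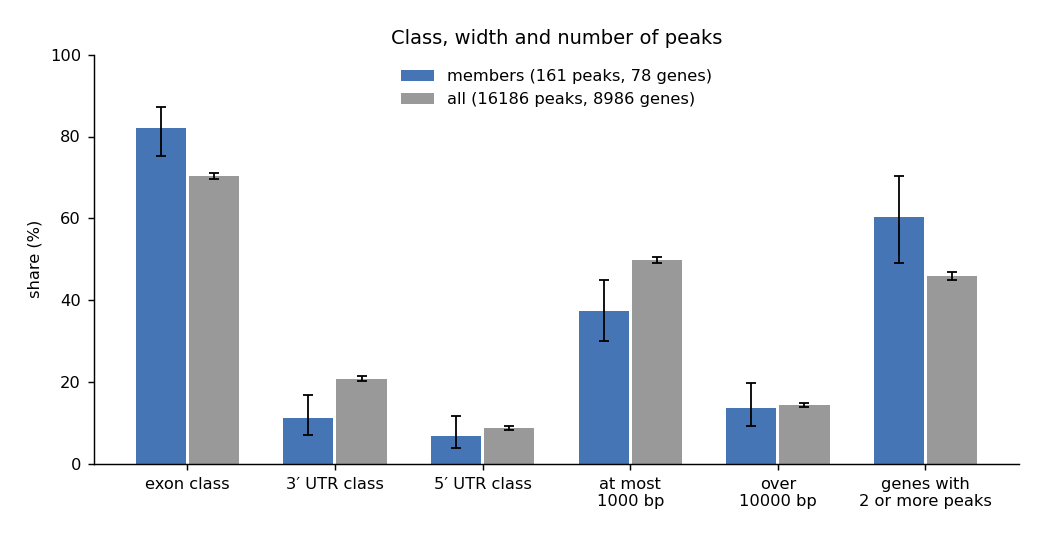
Shares of member peaks and of all listed peaks by annotation class and width, and of genes with 2 or more peaks, in percent. Bars start at 0 and black lines are Wilson 95% intervals; the exon class takes 82.0% of member peaks and 70.3% of all peaks.

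Members carried 2.06 peaks per gene, against 1.80 over all genes with a peak. There were 47 members with 2 or more peaks (60.3% of 78, 49.2 to 70.4), where the background over genes with a peak was 46.0%. The 31 members with a single peak made 39.7%, against 54.0%. Among the 18 meiotic members, 11 had a single peak (61.1%, 38.6 to 79.7), an interval that holds the 54.0% of the list. These 11 include further identifiers of DMC1 and SYCP2, so the share depends on how symbols with several identifiers are counted. Peak number and mean FPKM had a rho of 0.082 across 77 members, and peak number and transcript span one of 0.30 across 78.

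**Figure D2:**
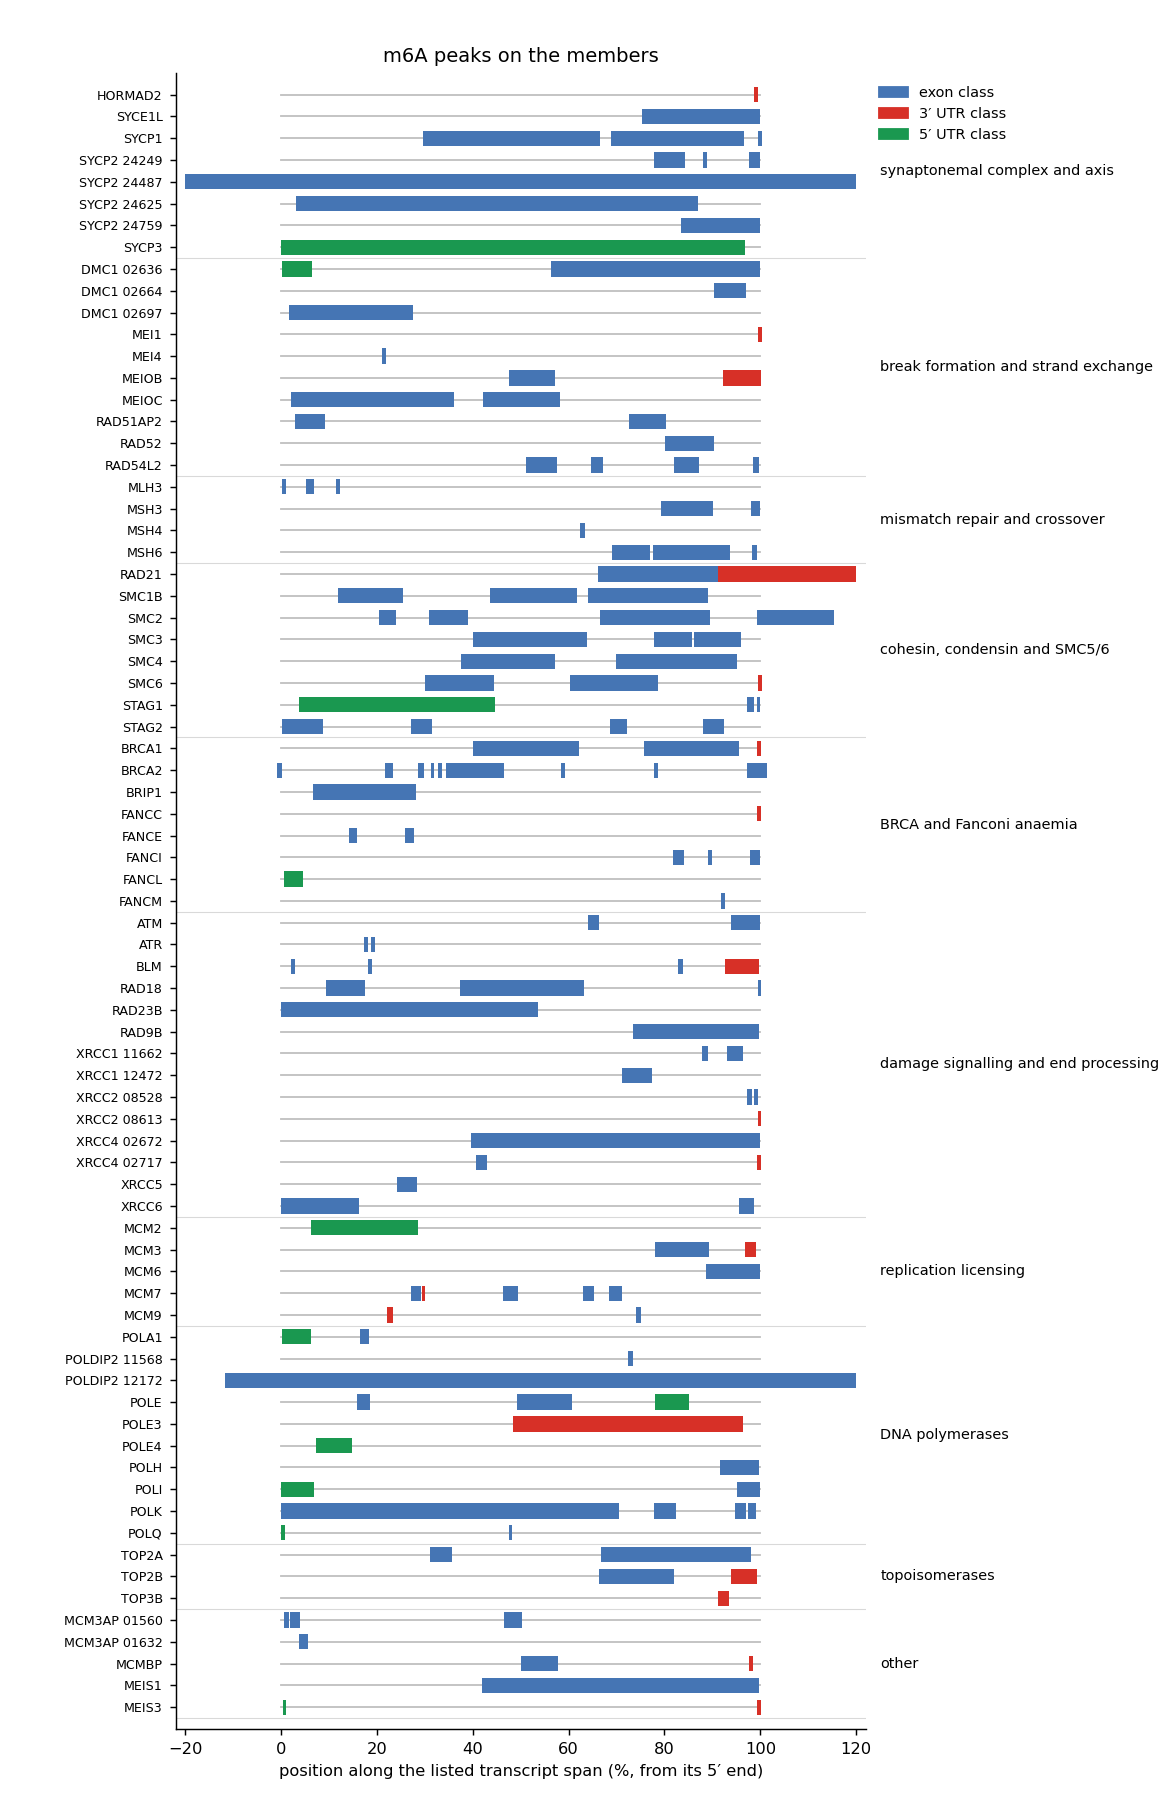
Positions of 155 of the 161 peaks along the transcript span listed with each peak, in percent from its 5' end, with 1 line per identifier grouped by role and the last 5 digits of the identifier where a symbol has several. Bars are peaks coloured by class, drawn with a minimum width and clipped where they run far past either end of the span; narrow 3' UTR peaks sit at the far right end, while the SYCP3 peak covers nearly the whole gene.

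The synaptonemal complex and chromosome axis gave 8 identifiers and 12 peaks with a median width of 3729 bp. SYCP1, the transverse filament that zips the homologs, had 3 exon peaks on chromosome 3. The first spanned 56431 bp (chr3:44620283-44676713, annotated to exon 14 of 33) and the second 42640 bp (chr3:44680300-44722939, exon 27), so that both run over many introns, whereas the third was 241 bp wide at exon 32. SYCP1 FPKM was 6.71, 4.76 and 4.85 in TES5, TES6 and TES7. SYCP3, a filament of the lateral element, had a single peak of 6941 bp (chr5:39764346-39771286) that covered nearly all of its 7165 bp span and is listed in the 5' UTR class. SYCP3 had 24.4, 18.0 and 19.8 FPKM (20.7 ± 3.30, SD, n = 3). HORMAD2, an axis protein that marks unsynapsed chromosomes, had 1 narrow peak of 244 bp in its 3' UTR (chr16:76821146-76821389). Its FPKM was 28.1, 16.3 and 15.4, with TES5 apart from the other two animals, and its mean of 19.9 ± 7.06 was within the spread of that of SYCP3. SYCE1L, a relative of the central element protein SYCE1, had 1 exon peak of 3420 bp and 5.21, 4.70 and 4.08 FPKM.

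SYCP2 pairs with SYCP3 in the lateral element, and its 4 identifiers differed. ENSBGRG00000024249, with 29 exons, had 3 exon peaks at exons 22, 26 and 27, all toward the 3' end of the span, and 4.98, 4.46 and 3.64 FPKM. ENSBGRG00000024487 is a unit of 1020 bp on the opposite strand inside it, listed at 0 FPKM in each of the 3 animals. Its peak of 18426 bp was annotated to exon 16 of ENSBGRG00000024249, so it lies on the transcript of the first identifier. The 2 identifiers with other ontology terms, ENSBGRG00000024625 and ENSBGRG00000024759, had 1 peak each and means of 0.801 and 5.71 FPKM.

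Break formation and strand exchange gave 10 identifiers and 17 peaks. DMC1, the recombinase of meiotic strand invasion, had its highest expression on ENSBGRG00000002636, with a 5' UTR peak of 2249 bp and an exon peak of 15591 bp (chr5:118253673-118269263, exon 12 of 14). Its FPKM was 21.4 in TES5, 8.72 in TES6 and 15.4 in TES7, a coefficient of variation (CV, SD over mean) of 41.9%. The other DMC1 identifiers had means of 0.547 and 1.53 FPKM, and neither was highest in TES5. Which of the 3 is the DMC1 gene could not be settled from the files, and ENSBGRG00000002664, like the first, carries no terms of another function. MEIOB, a single-strand binding factor of meiotic recombination, had an exon peak of 3277 bp and a 3' UTR peak of 2721 bp, and 9.51, 5.10 and 6.48 FPKM. MEIOC, which keeps germ cells in the meiotic programme, had 2 peaks of 848 and 400 bp on the same first exon of 2, and 10.5, 8.22 and 8.90 FPKM. MEI1 and MEI4 are both needed to make the breaks. MEI1 had a 3' UTR peak of 201 bp and 8.71, 7.15 and 6.39 FPKM. MEI4 had a 151 bp peak at exon 3 of 6 and 3.53, 3.81 and 3.61 FPKM, so its 3 animals were close (CV 3.99%).

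Outside the meiotic set, RAD52, RAD54L2 and RAD51AP2 were placed in this role group by symbol. RAD52, an annealing factor, had 1 exon peak of 1125 bp and 20.0, 14.2 and 17.5 FPKM. RAD54L2, an SNF2 family ATPase related by sequence to RAD54, had 4 exon peaks from exon 2 to exon 21 of 21 and a mean of 16.1 ± 1.78 FPKM. RAD51AP2 had 2 narrow peaks of 199 and 249 bp on its only exon, and 1.80, 0.707 and 1.25 FPKM (CV 43.7%). SPO11, REC114 and HORMAD1 were not analysed here.

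Mismatch repair and crossover genes gave 6 members and 13 peaks, all in the exon class, where 70.3% of all listed peaks were. MLH3, which acts in the resolution of crossovers, had 3 narrow peaks of 150, 397 and 150 bp. All were on its first exon of 13, within 3022 bp (chr11:76910725-76913746). MLH3 FPKM was 3.46, 2.89 and 2.42. MSH4, which stabilises crossover intermediates, had 1 peak of 1135 bp at exon 12 of 19 and the lowest expression of the group, 0.862, 0.367 and 0.569 FPKM. Its mismatch repair relatives MSH6 and MSH3, which recognise mispaired bases and small loops, were higher. MSH6 had 18.2, 18.2 and 17.7 FPKM, the smallest CV of any member at 1.60%, and MSH3 reached 5.28 ± 1.03. The peaks of MSH3 and MSH6 lay toward the 3' end of their spans, whereas those of MLH3 lay toward the 5' end.

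Cohesin, condensin and SMC5/6 gave 8 members and 24 peaks, of which 21 were exonic, where 70.3% of all listed peaks were. Each of the 8 had at least 2 peaks, as did 46.0% of all genes with a peak. Their median peak width of 6754 bp was the largest of the role groups. Only 1 of the 24 peaks was at most 1000 bp wide, where 49.8% of all listed peaks were. SMC1B, the meiotic form of the cohesin arm SMC1, had 3 exon peaks of 23449, 17125 and 12859 bp, which together cover 53433 of its 94187 bp. Its FPKM was 14.1, 10.7 and 10.2. SMC3, its partner in both mitotic and meiotic cohesin, had 3 exon peaks and 16.6, 18.0 and 16.7 FPKM. SMC2 and SMC4, the condensin pair, had 4 and 2 exon peaks and means of 2.66 ± 0.338 and 9.41 ± 0.344 FPKM. SMC6, of the SMC5/6 complex, had 2 wide exon peaks and a 201 bp 3' UTR peak, and 22.6 ± 1.28 FPKM.

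Among the cohesin subunits that bind the SMC ring, RAD21, the cleavable kleisin, was the highest, at 67.9, 88.2 and 77.7 FPKM. Its 3' UTR peak of 45280 bp ran 43347 bp past the listed end of the transcript. The STAG proteins bind the kleisin as core subunits. STAG1 had a 5' UTR peak of 71034 bp and 2 exon peaks near its 3' end, with 9.53, 9.12 and 9.25 FPKM (CV 2.25%). STAG2, on chromosome X, had 4 exon peaks spread from exon 1 to exon 29 of 33, and 9.56, 12.5 and 13.2 FPKM, lowest in TES5. The meiotic partners REC8, RAD21L1 and STAG3 and the mitotic SMC1A were not analysed here.

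BRCA and Fanconi anaemia genes gave 8 members and 23 peaks, and had the lowest median expression of the role groups, 2.92 FPKM. At most 1000 bp wide were 15 of the peaks, where 49.8% of all listed peaks were, and most of the 15 were on BRCA2. BRCA2, which loads recombinases onto broken ends, had 11 peaks, the most of any member, all in the exon class. Annotated to exon 10 of 26 were 6 of them, with widths of 600, 150, 150, 400, 151 and 6212 bp. From the first start to the last end they stretched over 9804 bp (chr15:53799075-53808878). Each peak carries 1 exon label and exon lengths are not known here, so the widest may run past that exon. Another 2 peaks, of 201 and 251 bp, were on exon 9. BRCA2 was weakly expressed, at 2.20, 2.52 and 2.61 FPKM. BRCA1, which promotes end resection, had exon peaks of 18222 and 16282 bp and a 150 bp 3' UTR peak, and 10.2, 11.0 and 12.4 FPKM. Both BRCA genes and the helicase BRIP1 (1.42, 1.66 and 1.88 FPKM, 1 peak of 42606 bp) were lowest in TES5. So were 41.6% of all genes with a peak.

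Of the FANC genes, FANCI, which is ubiquitinated with its partner at stalled forks, stood highest, at 37.6, 33.2 and 26.6 FPKM, with 3 exon peaks at exons 25, 31 and 36 of 38. FANCL, the ubiquitin ligase, had 1 5' UTR peak of 3136 bp and 4.03, 4.13 and 2.04 FPKM. FANCC and FANCE belong to the core complex around it. FANCC had a single 149 bp peak in its 3' UTR and 2.69, 5.60 and 4.99 FPKM (CV 34.7%). FANCE had 2 narrow peaks, of 250 and 199 bp, each annotated to exon 2 of a different transcript, and a mean of 1.93 ± 0.266 FPKM. FANCM, a fork translocase, had a 200 bp peak at exon 21 of 24 and 2.30 ± 0.330 FPKM.

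Damage signalling and end processing gave 15 identifiers and 28 peaks, none in the 5' UTR class, where 8.82% of all listed peaks were. The kinases ATM and ATR, which respond to double-strand breaks and to single-stranded DNA, had 2 exon peaks each and 4.53 ± 0.483 and 5.80 ± 0.874 FPKM. BLM, a helicase that dissolves joint molecules, had 4 peaks, 3 in exons and 1 in the 3' UTR, and 4.95 ± 0.258 FPKM. RAD9B, a form of the 9-1-1 clamp subunit known from testis, had 1 peak of 7938 bp and 6.37, 2.75 and 3.38 FPKM. Its CV of 46.5% was the largest among members with a mean of at least 1 FPKM. RAD18, a ubiquitin ligase of damage tolerance, had 3 exon peaks and 10.2, 5.91 and 7.84 FPKM. RAD23B, which helps to recognise bulky lesions, was the highest of the group at 52.9 ± 2.45 FPKM, with 1 exon peak of 25974 bp.

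The XRCC genes were uneven. XRCC4, which holds the ligase of end joining, carried the widest member peak, 168325 bp over 278745 bp of gene (chr8:90599876-90768200), on ENSBGRG00000002672, at 6.66, 6.70 and 5.43 FPKM. XRCC5 and XRCC6, the Ku pair, had means of 8.82 ± 1.28 and 30.1 ± 3.49 FPKM. XRCC1, a scaffold of single-strand break repair, had 2 peaks and 12.4 ± 2.34 FPKM on the longer identifier and a 149 bp peak and 5.10 ± 0.859 FPKM on the shorter one. XRCC2, a factor of homologous recombination, had 2 peaks of 242 bp on the last exon of ENSBGRG00000008528, at 5.55 ± 0.86 FPKM. Its other identifier, ENSBGRG00000008613, had a 200 bp 3' UTR peak and 15.2 ± 0.837 FPKM.

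The replication licensing genes were the most highly expressed role group, with a median of 37.2 FPKM over 5 members. MCM7, MCM2, MCM6 and MCM3, subunits of the replicative helicase, had means of 81.2 ± 2.42, 47.8 ± 2.48, 37.2 ± 5.06 and 26.5 ± 2.51 FPKM. MCM9, a relative needed in germ cells, was at 3.63 ± 0.528. MCM7 had 5 peaks, but 3 of them were annotated to exons of other identifiers inside its listed span, 1 of them ZKSCAN1, and cannot be assigned to MCM7. A 738 bp 3' UTR peak (chr26:734465-735202) lies beside 1 of these, past the end of the shorter MCM7 transcript at 714012, and is on MCM7 only through the longer listed span of 103286 bp, so it is equally doubtful. The remaining peak, of 238 bp, is on exon 8 of 15 of the shorter transcript. None of the 5 licensing genes was highest in TES6, where 30.3% of all genes with a peak were.

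DNA polymerases gave 10 identifiers and 18 peaks. In the 5' UTR class were 5 of them, against 6 in all other members and 8.82% of all listed peaks. The small subunits of polymerase epsilon, POLE3 and POLE4, reached 67.7 ± 4.17 and 52.9 ± 6.07 FPKM, and the catalytic subunit POLE 6.45 ± 0.878. POLE3 had 1 3' UTR peak of 624 bp, POLE4 1 5' UTR peak of 917 bp and POLE 3 peaks. The POLE peak listed in the 5' UTR class has its centre at 81.6% of the span, far from the 5' end, so its class is doubtful. POLA1, the polymerase of primer synthesis on chromosome X, had a 5' UTR peak of 20158 bp and 6.91 ± 0.703 FPKM. POLK, a lesion bypass polymerase, had 4 exon peaks, the first spanning 59200 bp, and 2.93 ± 0.0854 FPKM. POLH and POLI, also bypass polymerases, had 9.83 ± 0.867 and 7.65 ± 1.28. POLQ, of alternative end joining, had 1.04, 0.766 and 1.08 FPKM, a low level that among the polymerase group was undercut by the second POLDIP2 identifier (0.345). POLDIP2, a polymerase delta binding protein, had the highest FPKM of any member (102, 89.8 and 87.6), but its 148 bp peak was annotated to an exon of another identifier, and the peak of its second identifier to an exon of the first.

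Topoisomerases and the remaining matches were few. TOP2A and TOP2B, which pass one duplex through another, had 2 peaks each and 13.3 ± 0.434 and 14.3 ± 1.46 FPKM, and TOP3B, which acts on single strands, had a 350 bp 3' UTR peak and 10.3 ± 0.663. MCMBP, which binds the MCM complex, had 39.3 ± 3.03 FPKM. MCM3AP, an mRNA export factor, had 15.8 ± 0.371 on its longer identifier and 0.835 on the shorter, which held the narrowest member peak (147 bp). The homeobox gene MEIS1 had a peak of 53131 bp and 1.08 ± 0.339 FPKM, and MEIS3 4.73 ± 0.953.

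**Figure D3:**
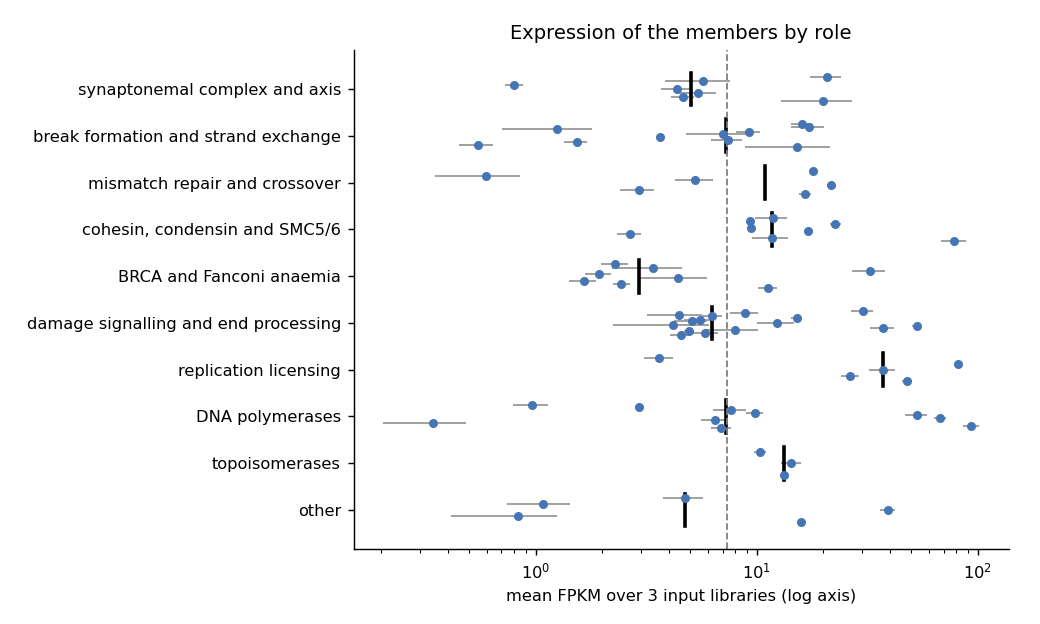
Mean FPKM over 3 input libraries for each member above 0, on a log axis, by role; grey lines are the SD, black bars the median of the group and the dashed line the median of all genes with a peak (7.36). Replication licensing has the highest group median (37.2) and BRCA and Fanconi anaemia genes the lowest (2.92).

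As a set, the members were expressed at the level of other genes with a peak. The median of their mean FPKM was 7.53, against 7.36 over 8775 genes with a peak and an FPKM. At least 1 FPKM in every library was reached by 69 of 78 members (88.5%), where the background was 86.9%. Meiotic members had a median of 5.05 FPKM and the other members of 9.36. The meiotic median includes the SYCP2 identifier listed at 0 FPKM. It also includes identifiers with other ontology terms, of SYCP2 (0.801 and 5.71 FPKM) and of DMC1 (1.53 FPKM). In bulk testis, fewer cells of a type and less RNA per cell cannot be told apart. The median CV between animals was 16.9% over 14 meiotic members, 11.5% over 55 other members and 11.6% over 7629 genes, each with at least 1 FPKM in every library.

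The animals were then set side by side, a view chosen after the values were seen. Of the 17 meiotic members above 0, 13 had their highest FPKM in TES5 (76.5%), where the background over genes with a peak was 35.7%. None was highest in TES7. In the other members 25 of 60 were highest in TES5 (41.7%) and 24 in TES7 (40.0%). Summed over the meiotic members, FPKM was 151, 105 and 108 in TES5, TES6 and TES7. The median ratio of TES5 to TES6 was 1.22 in the meiotic members, 1.04 in the other members and 0.991 over all genes with a peak, and that of TES5 to TES7 was 1.37, 1.02 and 0.975. The exceptions, highest in TES6, were MEI4, ENSBGRG00000024625 (SYCP2) and 2 of the 3 DMC1 identifiers. After the libraries were rescaled to 1 sum of FPKM, 13 of 17 were still highest in TES5. In that setting 25.7% of all genes with a peak and 31.7% of the other members were. The median ratio of TES5 to TES6 was then 1.13, against 0.920 over all genes with a peak. Without the identifiers with other ontology terms, and before rescaling, 12 of 14 were highest in TES5 (85.7%), against the 35.7% above. With 1 sample per animal, the difference between animals has no replicate check.

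**Figure D4:**
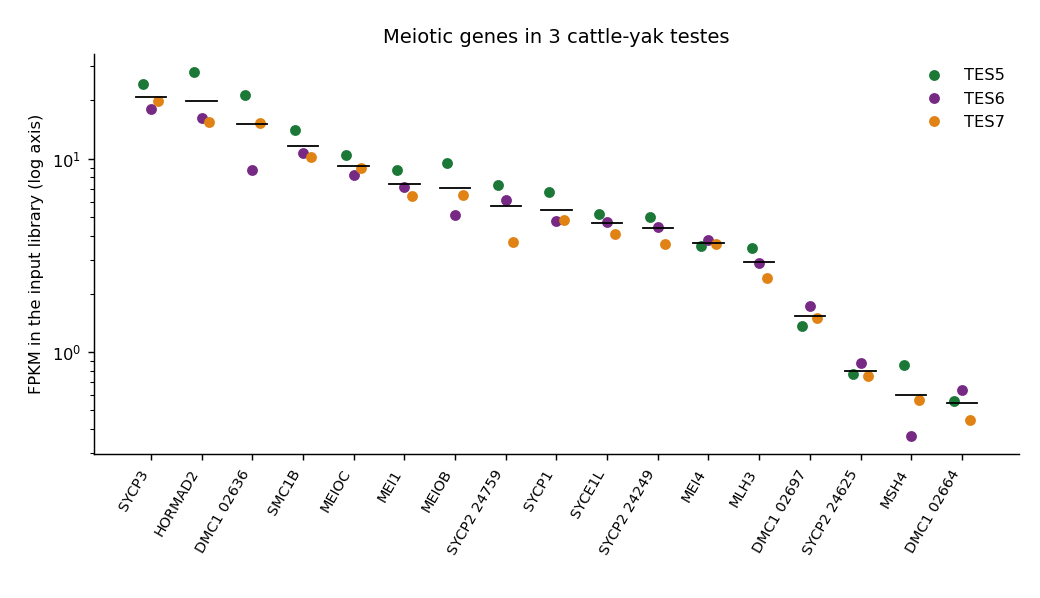
FPKM of the 17 meiotic members above 0 in the input library of each animal, on a log axis, ordered by the mean (black line). The TES5 point is the highest for 13 of the 17, among them SYCP3, HORMAD2 and the first DMC1 identifier.

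Meiotic genes outside the rule were looked up by symbol, and 16 of 30 listed symbols were found, on 17 identifiers. Of these, 10 were highest in TES5, where 35.7% of all genes with a peak were, and the median ratios of TES5 to TES6 and TES7 were 1.23 and 1.27. SPATA22, the partner of MEIOB, had 16.2, 8.67 and 9.28 FPKM, and TEX12, of the central element, 12.1, 6.45 and 6.72. The meiotic helicase HFM1 had 19.0, 12.5 and 16.0 on its main identifier, and ZCWPW1, a reader of histone marks at recombination hotspots, 49.1, 33.2 and 39.3. TEX15, RNF212B, MND1 and TEX11 were highest in TES7 instead, and TRIP13, ANKRD31 and TERB1 in TES6.

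Cell type markers moved with the animals as well. Found were 4 of 13 spermatocyte markers outside the rule, with sums of 81.3, 63.8 and 56.4 FPKM in TES5, TES6 and TES7, and 1 of 15 spermatid markers (TSSK1B, 2 identifiers), with 16.0, 14.4 and 12.9. Those of 4 of 12 spermatogonia markers were 24.3, 25.7 and 33.3. For somatic cells, 4 of 10 Sertoli markers gave 77.0, 90.6 and 84.1, 1 of 6 Leydig markers (STAR) 100, 108 and 112, and 4 of 4 peritubular myoid markers 340, 384 and 370. Spermatocyte and spermatid sums were thus highest in TES5, and the somatic and spermatogonia sums lowest there. Single markers differed from their sums. PIWIL2 was lowest in TES5 (14.6, 17.1 and 17.1), NANOS3 was lowest in TES6 (8.44, 6.75 and 9.02) and DHH in TES7, while HSPA2 (44.3, 28.0 and 26.1) made up most of the difference in the spermatocyte sum. No matched marker was at 0 in any animal, and the part of cell makeup in the difference between animals was not tested.

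**Figure D5:**
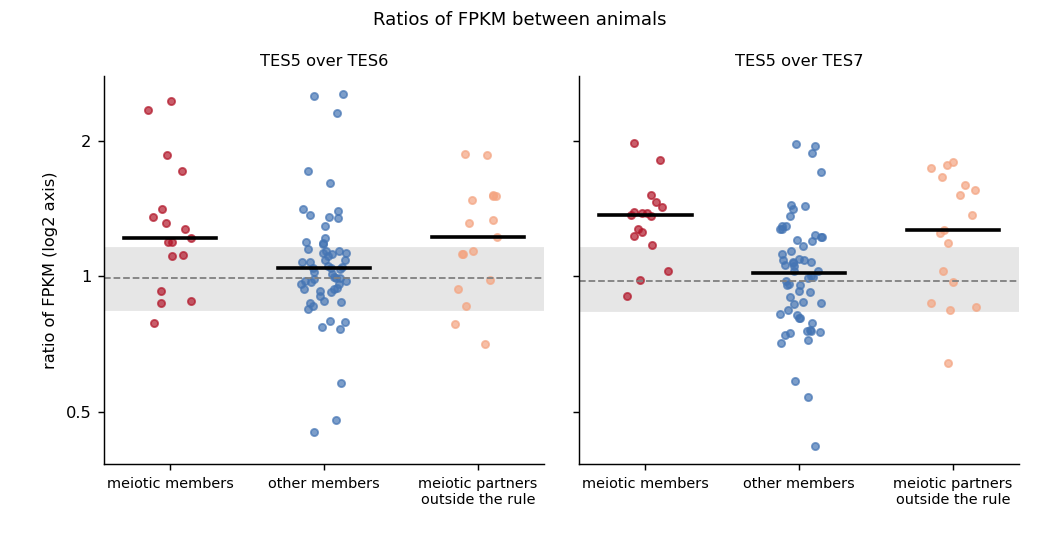
Ratios of FPKM in TES5 to TES6 and to TES7, on a log2 axis, for meiotic members, other members and meiotic genes outside the rule, each above 0 in every library; points are identifiers and black bars medians. The dashed line and grey band are the median and quartiles over all genes with a peak; the meiotic members have medians of 1.22 and 1.37.

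Peaks that share an annotated exon were few. Of 132 exon peaks, 21 shared their exon with another peak of the same exon (15.9%), where the background was 15.2%. BRCA2 alone gave 8 of the 21, and 13 of 121 (10.7%) were left without it. The others were on MLH3, MEIOC, RAD51AP2, MCM3AP, XRCC2 and the XRCC4 identifier with other terms. In transcripts of at least 3 exons, 109 of 128 member exon peaks were on internal exons (85.2%, 78.0 to 90.3), against 75.9% in the list. First exons held 11 (8.59%, against 12.5%) and last exons 8 (6.25%, against 11.6%). Transcripts carrying members' exon peaks had more exons (median 20, against 12), and these shares were not matched on exon number. Peaks annotated to exons of another identifier numbered 6, on MCM7, POLDIP2 and SYCP2 (4.55% of exon peaks, 2.10 to 9.56, against 2.77% in the list). Peaks reaching beyond the transcript listed with them numbered 7 (4.35%, 2.12 to 8.70, against 6.99% in the list). They were on BRCA2, MEIOB, POLDIP2, RAD21, SMC2 and SYCP2, and those of POLDIP2 and SYCP2 are in both counts.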

How the data were processed

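The authors sequenced m6A IP and input libraries from 3 testes, trimmed reads with Trimmomatic, filtered out rRNA reads by SortMeRNA and mapped the rest by HISAT2 2.0.4 (version per the submitters' processing notes) to LU_Bosgru_v3.0 (Ensembl release 99). The libraries were stranded. MeTDiff was set to a fragment length of 200, a p cutoff of 0.01 and an FDR of 0.05, with screening at p 0.05 and a fold of 1.5, and ChIPseeker annotated the peaks. Peak positions and widths were deposited in base pairs, with no enrichment values. FPKM was deposited by the authors, and the program is not given in the sources used here. FPKM is no count, so no count test was run.

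From these, peaks were counted by class, width and exon, and means, SDs and CVs were taken over 3 animals. With 1 condition no test between groups exists. Wilson 95% intervals cover counting error only. A peak's position is that of its centre along the listed transcript. Depth is unknown from the files. Steps were tested on simulated data. Python 3.11.15, pandas 2.3.3, numpy 2.4.6, SciPy 1.17.1 and matplotlib 3.10.9 were used.

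Members, role groups, partners and marker lists were chosen with earlier results of these data known. Named were the meiotic members, the members with the extreme FPKM, CV, width and peak number, and subunit pairs, with the rest by role. Alternatives were other filters on FPKM, width weighting, merged peaks, counting by symbol, rescaled libraries and each animal left out. No sequence of this build was used here. Some members count in the totals but are not reported here by name.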

Additional observations from a re-analysis of the deposited data

How the results depend on the processing

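No paired analysis was possible because no value per animal exists for the IP side, FPKM being given for input libraries alone. Restricted to peaks up to 1000 bp, the exon share became 73.3%, the 3' UTR share 21.7% and the rho of width with span -0.055. Weighted by width, the 3' UTR share was 5.45%. Counted by symbol, 29.4% of members had a single peak, by construction of fewer units. The median FPKM was 9.30 with at least 1 FPKM in every library, and 8.82 without identifiers with other terms, a setting chosen after seeing the data like the next one. Without BRCA2, 13 peaks shared an exon. Leaving out each animal in turn gave medians of 7.06 to 7.77 FPKM. The other 33 values kept within their interval or spread, as did 312 gene means. Of 30 role sums after rescaling, 4 moved: mismatch repair and crossover to 62.7, 66.7 and 66.1, and the remaining matches in TES5 to 58.4. The FPKM values keep no depth, and symbols without a peak were not analysed here.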

Other observations

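Partners outside the rule were looked up in a list of 100 symbols, of which 66 were found, on 73 identifiers with 139 peaks. Exon peaks made 79.1% of them and peaks of at most 1000 bp 36.7%, near the 82.0% and 37.3% of the members. Cohesin regulators and condensin subunits, with 28 peaks on 12 identifiers, had 26 in the exon class (92.9%, against 70.3% of all listed peaks). Their median width was 4117 bp. The repair and replication partners had 74 peaks on 44 identifiers, with 71.6% in the exon class. By pathway term, members made 11 of the 25 genes with a peak in the Fanconi anaemia pathway and 34 of their 68 peaks. They made 5 of 12 in homologous recombination, 2 of 6 in mismatch repair and 3 of 7 in DNA replication. The rule picks such genes by symbol, so this overlap is not a result. Any pathway term was listed for 28 of 78 members and 2547 of 8986 genes with a peak.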
